A study of Mus musculus with 8 samples.

Results

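Hyaluronan is a long sugar polymer of the extracellular matrix, and the 9 mouse genes examined here make it, bind it or organise it: the hyaluronan synthases Has1, Has2 and Has3, the hyaluronan-binding proteoglycans versican (Vcan), aggrecan (Acan) and brevican (Bcan), the link proteins Hapln1 and Hapln3, and the cell surface receptor Cd44. They were chosen by name, and all 9 were found by Ensembl identifier among the 46517 genes of the count table. Total RNA was sequenced from dissected epididymal ducts, formed by the Wolffian duct and its mesenchyme, at E18.5 in the mouse. The Ptk7 cKO (conditional knockout) label was on 4 libraries, numbered 1, 2, 4 and 5, whose genotype joins a floxed Ptk7 allele to Xst87, a disrupted one. They were set against 4 control libraries (numbered 1, 3, 4 and 6) with a floxed and a wild-type Ptk7 allele. By the breeding scheme, both genotypes also carry T-Cre and mT/mG. T-Cre drives Cre recombinase from sequences of the Brachyury gene, active in early mesoderm, so it is not specific to duct epithelium or to mesenchyme, and control cells that recombined kept the wild-type allele. mT/mG is a membrane fluorescence reporter of recombination. Ptk7 is a pseudokinase receptor of the planar cell polarity pathway. By its title, the study asked how Ptk7 regulates extracellular matrix in the mesenchyme, and these genes build or bind that matrix.

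Hyaluronan is made at the plasma membrane by the synthases, which extrude the growing chain from the cell. Versican and its relatives, the lecticans, carry chondroitin sulfate chains and bind hyaluronan at one end of their core protein, and link proteins clamp that bond. The resulting hydrated coat swells and loosens embryonic mesenchyme, and cells hold it through Cd44. Has2 is the main synthase of most embryonic mesoderm, Acan and Hapln1 are abundant in cartilage, and Bcan is a brain gene.

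Total counts ranged from 24807970 to 29590547 per library. Ptk7 itself had 7.33, 7.59, 12.5 and 194 CPM (counts divided by scaled library size) in the libraries labelled cKO 1, 2, 4 and 5, against 189, 112, 313 and 169 CPM in controls 1, 3, 4 and 6. The library labelled cKO 5 therefore goes against its label, and the values without it are given for the 6 tested genes and for the counts of the pathway lists. Nothing in the labels ties a library to its own embryo or litter. The p-values thus reflect only the spread among these libraries, some of which may be technical. All 12 of the markers listed for duct epithelium (led by Epcam) and all 10 listed for mesenchyme (led by Col3a1) had a mean of at least 1 CPM, so the libraries held RNA of both tissues. In such bulk samples, fewer cells of a type and less RNA per cell cannot be told apart.

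The lecticans showed the widest contrast in level, and the sequences before their starts are shown for that reason. Vcan had 8593 to 18326 counts in every library, while Acan had 2 to 10 and Bcan 0 to 4. The 250 bases upstream of each RefSeq transcript start (build GRCm38.p6) are printed 5′ to 3′ on the gene's strand, with capitals marking a CCAAT box (CCAAT, or ATTGG on the other strand) or a GC box (GGGCGG, or CCGCCC on the other strand).
Vcan (GRCm38 chr13:89742513-89742762, minus strand): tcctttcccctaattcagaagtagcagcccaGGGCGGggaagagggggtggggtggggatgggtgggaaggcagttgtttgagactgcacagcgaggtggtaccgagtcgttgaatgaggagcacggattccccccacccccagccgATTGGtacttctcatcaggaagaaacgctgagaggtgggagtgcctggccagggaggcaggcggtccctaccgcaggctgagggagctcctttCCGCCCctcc
Acan (GRCm38 chr7:79052976-79053225, plus strand): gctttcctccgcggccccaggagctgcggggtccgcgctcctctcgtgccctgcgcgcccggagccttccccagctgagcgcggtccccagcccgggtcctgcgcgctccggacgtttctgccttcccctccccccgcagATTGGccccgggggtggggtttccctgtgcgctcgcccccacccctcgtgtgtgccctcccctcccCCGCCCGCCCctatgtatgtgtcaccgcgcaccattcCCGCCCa
Bcan (GRCm38 chr3:88000357-88000606, minus strand): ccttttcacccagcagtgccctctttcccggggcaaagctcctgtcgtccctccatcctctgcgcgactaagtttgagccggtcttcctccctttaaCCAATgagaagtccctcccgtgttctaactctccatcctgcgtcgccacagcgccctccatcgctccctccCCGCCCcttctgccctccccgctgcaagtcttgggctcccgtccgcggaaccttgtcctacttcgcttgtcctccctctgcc
Each of the 3 sequences holds both boxes, as do 11.01% of the 32851 RefSeq promoters searched on both strands. A CCAAT box is in 33.8% of them and a GC box in 32.7%. The motifs did not overlap each other, except for a pair of GC boxes in Acan. The window of Acan is 74.4% G and C, against 62.4% for Vcan, 62.0% for Bcan and a median of 52.4% over all promoters. A TCF/LEF core (CTTTGAA or CTTTGAT, either strand), the letters read by the transcription factors of canonical WNT signalling, is in 7.48% of promoters and in none of the 7 windows of these genes in the table (Has2 and Has3 had no entry). Vcan, with its high counts, and Acan and Bcan, with almost none, thus hold the same 2 kinds of box in this window. The RefSeq start lies upstream of the gene start in the count table, by 3 bases for Vcan, 257 for Acan and 126 for Bcan. The windows of Acan and Bcan therefore do not directly precede the genes as counted. A match is a description of letters and says nothing of binding.

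Compared per length, as TPM (a share of all transcripts, from counts divided by the summed exon length of the gene), the 9 genes fell into an order that spanned from Vcan to Bcan. Vcan averaged 59.3 TPM over the 8 libraries (range 50.9 to 89.1) and ranked 2406 among all genes. Has2 followed at 25.1 TPM (20.4 to 36.2), then Hapln3 at 15.3 (11.7 to 18.8), Cd44 at 13.3 (11.2 to 18.4) and Hapln1 at 6.99 (5.995 to 8.37). Has3 averaged 1.003 TPM (0.755 to 1.36), Has1 0.181 (0.0673 to 0.320), Acan 0.0768 (0.0191 to 0.114) and Bcan 0.0166 (0 to 0.0730). Neighbours in this order were separate in every library, except that the ranges of Hapln3 and Cd44, of Has1 and Acan, and of Acan and Bcan overlapped. On average Vcan stood 2.36-fold above Has2, 4.47-fold above Cd44 and 8.48-fold above Hapln1 in TPM.

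**Figure D1:**
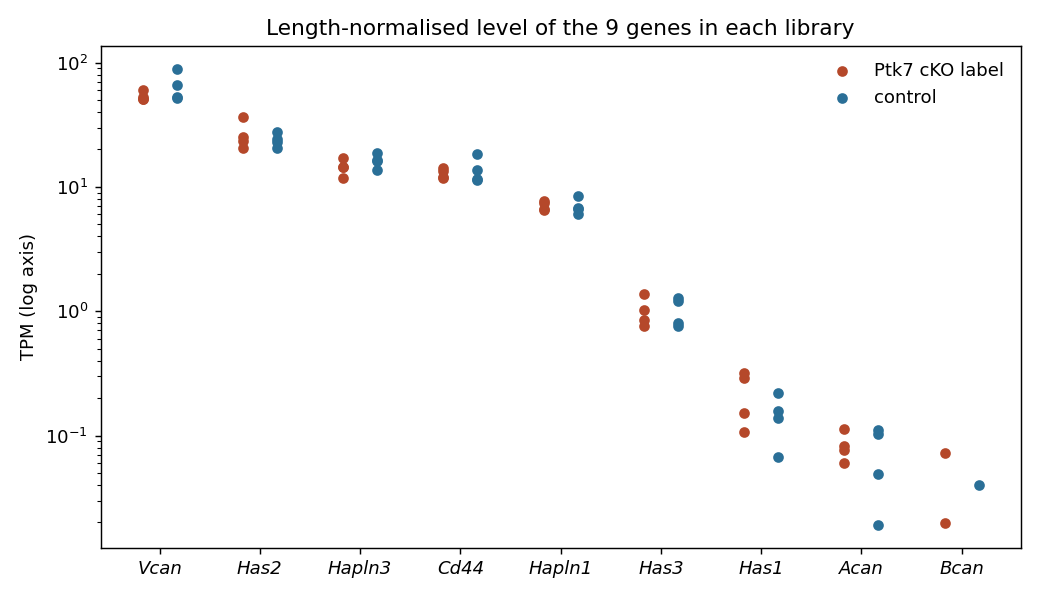
Length-normalised level (TPM, log axis) of the 9 genes, ordered by their mean, with 1 point per library (left of each pair, the libraries labelled Ptk7 cKO; right, controls). Vcan lies highest in every library, at 50.9 to 89.1 TPM, the groups overlap for every gene, and libraries of Bcan at 0 cannot be drawn on a log axis.

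None of these genes was called different between the libraries labelled cKO and control. Of the 9, 6 passed the filter on low counts and were tested (Has2, Has3, Vcan, Hapln1, Hapln3 and Cd44), and 0 of the 6 had an adjusted p under 0.05 in edgeR's quasi-likelihood test, against 0% of the 16469 genes tested. At an unadjusted p under 0.05 there were also 0 of the 6, against 8.37% of all genes (3.5% higher and 4.87% lower). DESeq2 called 0 of the 6 as well, against 1.13% of the genes it tested, and 0 of the 6 without the library labelled cKO 5, against 1.1%. The CPM ranges of the groups overlapped for all 6, whereas 5.76% of tested genes did not overlap. Of the 6, 2 lay above 0 and 4 below, with a median log2 fold change of -0.05, beside 0.01 over all genes tested. A p that misses the threshold does not show that the levels were equal, so the 95% interval of each log2 fold change is given with it. Of the summed markers of 12 cell types, only those of smooth muscle and mesothelium did not overlap between the groups. Smooth muscle markers summed to 2541 to 3237 CPM in the cKO label and 3254 to 3880 CPM in control, and mesothelial markers to 718 to 933 CPM in the cKO label and 566 to 679 CPM in control. All 8 genes of either list had at least 1 CPM on average, led by Acta2 and Upk3b. Neither sum overlapped between the groups, beside 5.76% of single genes that did not. Gene by gene, 2 of the 8 smooth muscle genes did not overlap, and they went opposite ways. Acta2 was lower in the cKO label and Des was higher. Acta2, the largest part of the sum, had 1514 to 1909 CPM in the cKO label and 1990 to 2592 CPM in control. Of the 8 mesothelial genes, 3 did not overlap (Myrf, Wt1 and Upk1b, all higher in the cKO label), while Upk3b overlapped. At an unadjusted p under 0.05, 4 smooth muscle genes were lower and 1 higher, and 5 mesothelial genes were higher and 0 lower. Of all genes, 3.5% were higher and 4.87% lower. Des ran against the smooth muscle sum, with 198 to 214 CPM in the cKO label and 131 to 186 CPM in control. Without the library labelled cKO 5 the sums in the cKO label were 2541 to 3131 CPM for smooth muscle and 718 to 860.3 CPM for mesothelium. Their part in the values below was not tested.

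**Figure D2:**
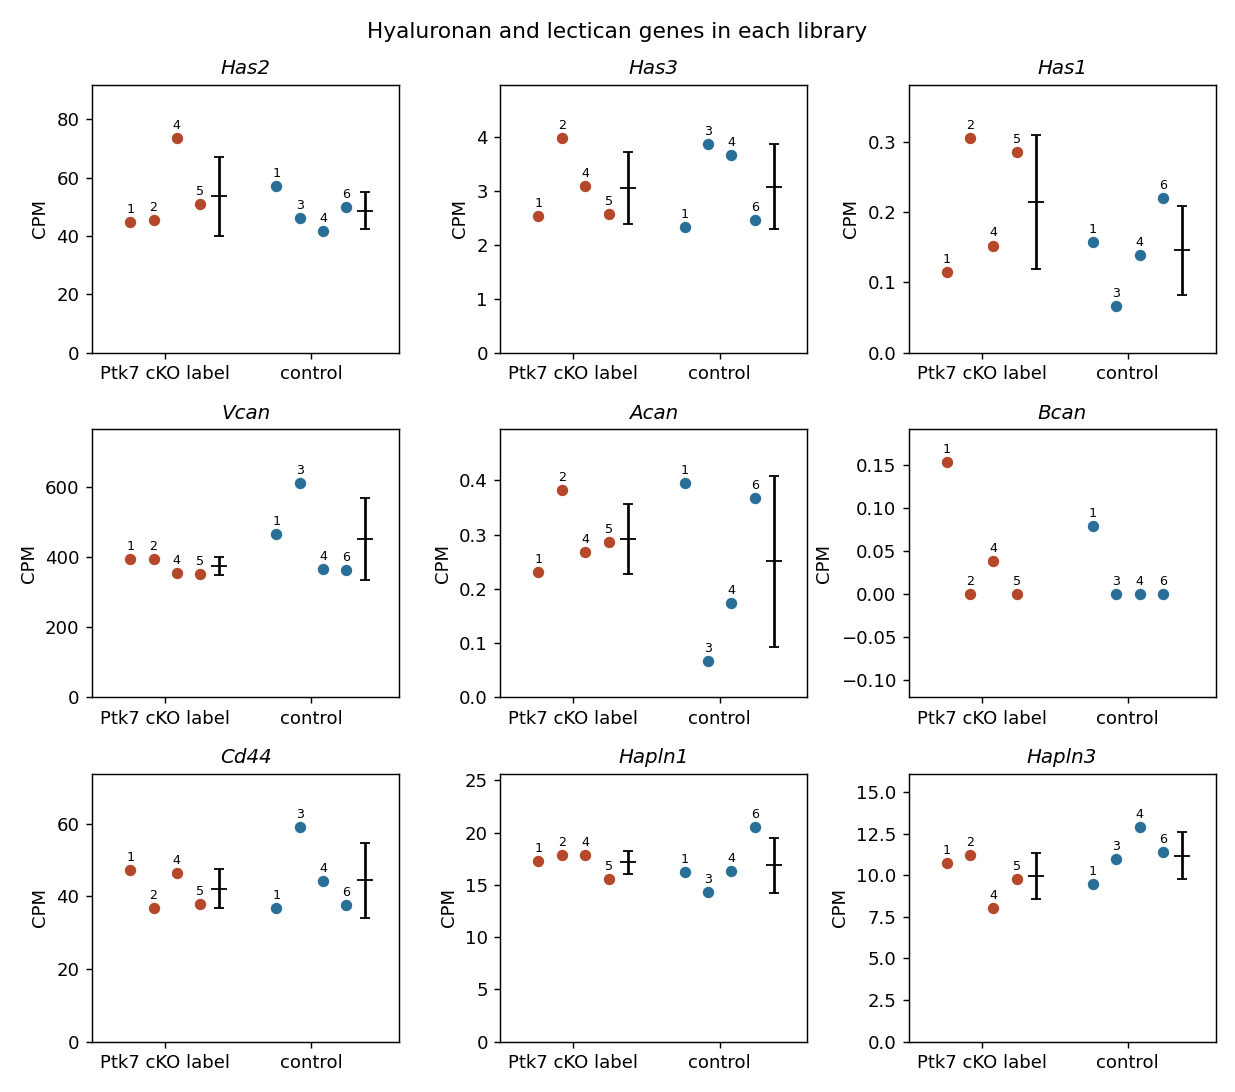
CPM of each of the 9 genes (linear axes) in the libraries labelled Ptk7 cKO (left) and the controls (right). Points carry the library number, and black marks give the mean and SD of 4 libraries (not drawn for Bcan, which is at 0 in 5 libraries). Has2 is highest in the library labelled cKO 4 (73.4 CPM), and Vcan (610.1 CPM) and Cd44 (59.0 CPM) are highest in control 3.

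Among the synthases, Has2 carried nearly all of the signal. Has2 (ENSMUSG00000022367, chromosome 15, 56665627 to 56694539, minus strand, GRCm38 as in the count table) makes long hyaluronan chains and is the synthase that mouse embryos need for heart and vessel formation. It had 44.7, 45.4, 73.4 and 50.8 CPM in the libraries labelled cKO 1, 2, 4 and 5, against 57.0, 46.0, 41.8 and 49.97 CPM in controls 1, 3, 4 and 6. The library labelled cKO 4 stood above all others, and the other 3 of its group lay within the control range. The means were 53.6 ± 13.5 CPM in the cKO label and 48.7 ± 6.46 CPM in control (SD, n = 4 each), a log2 fold change of 0.14 (SE 0.16, 95% interval -0.21 to 0.49, edgeR adjusted p = 0.827). Without the library labelled cKO 4 the log2 fold change was -0.05 (SE 0.11, edgeR adjusted p = 0.934), the opposite sign, and the mean of the cKO label was 47.0 ± 3.34 CPM (SD, n = 3). An antisense gene, Has2os, overlaps Has2 by 182 bases summed over pairs of annotated exons, where a base can count more than once. Whether counting used strand is not given in the sources used here. Has2os had 35 to 69 counts per library.

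Has3 (ENSMUSG00000031910, chromosome 8, 106870242 to 106884566, plus strand), a synthase of higher turnover that makes shorter chains, was a minor component. It had 2.53, 3.97, 3.09 and 2.58 CPM in the libraries labelled cKO 1, 2, 4 and 5, against 2.33, 3.86, 3.65 and 2.46 CPM in controls 1, 3, 4 and 6. Each group held a lower pair of libraries and a higher pair. The log2 fold change was -0.02 (SE 0.23, 95% interval -0.52 to 0.49, edgeR adjusted p = 0.987), the widest interval of the 6. Has3 overlaps Chtf8, a gene at 161 CPM on the opposite strand, by 352 bases summed over exon pairs in the same way. The low counts of Has3 thus carry the uncertainty over strand. Has1 (ENSMUSG00000003665, chromosome 17, 17843328 to 17855188, minus strand), the least active synthase in most tissues, had 3, 8, 4 and 7 counts in the libraries labelled cKO 1, 2, 4 and 5, against 4, 2, 4 and 6 counts in controls 1, 3, 4 and 6, and was not tested. Of the summed synthase TPM, Has2 made up 95.4 ± 1.51% in the cKO label and 95.3 ± 1.35% in control (SD, n = 4 each). Has3 made up 3.74 ± 1.18% in the cKO label and 4.12 ± 1.44% in control, and Has1 at most 1.27% in any library. The mix of synthases differed between the groups by less than the spread between libraries.

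Vcan had the largest difference of the 6 tested genes, and it rested on control 3. Vcan (ENSMUSG00000021614, chromosome 13, 89655312 to 89742509, minus strand) encodes the large lectican of embryonic mesenchyme. It had 395, 395, 352 and 351 CPM in the libraries labelled cKO 1, 2, 4 and 5, against 466, 610.1, 365 and 363 CPM in controls 1, 3, 4 and 6. Controls 1 and 3 stood above every library of the cKO label, while controls 4 and 6 lay inside its range. The means were 373 ± 24.8 CPM in the cKO label and 451 ± 116 CPM in control (SD, n = 4 each), a log2 fold change of -0.27 (SE 0.15, 95% interval -0.61 to 0.07, edgeR adjusted p = 0.682). Without control 3 the log2 fold change was -0.09 (SE 0.098, edgeR adjusted p = 0.946), with a control mean of 398 ± 58.7 CPM (SD, n = 3). The fit that omits the library labelled cKO 5 gave -0.24 (SE 0.17, edgeR adjusted p = 0.722). The coefficient of variation between libraries was 6.64% in the cKO label and 25.8% in control, a difference in spread that was not tested. The table counts whole genes, so the splice forms of Vcan, which differ in their chondroitin sulfate regions, were not analysed here.

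Vcan made up 99.4% to 99.9% of the summed TPM of the 4 lecticans (with Ncan, neurocan) in every library. Acan (ENSMUSG00000030607, chromosome 7, 79053483 to 79115099, plus strand), the cartilage lectican, had 6, 10, 7 and 7 counts in the libraries labelled cKO 1, 2, 4 and 5, against 10, 2, 5 and 10 counts in controls 1, 3, 4 and 6. Bcan (ENSMUSG00000004892, chromosome 3, 87987531 to 88000230, minus strand) had 4, 0, 1 and 0 counts in the libraries labelled cKO 1, 2, 4 and 5, against 2, 0, 0 and 0 counts in controls 1, 3, 4 and 6. At these counts neither was tested, and a difference between the groups was not detectable at this depth. Of the 12 cartilage markers, 4 had a mean of at least 1 CPM, namely Col9a2 (154 CPM), Cnmd (20.4 CPM), Col9a1 (5.27 CPM) and Col9a3 (1.33 CPM). Col2a1, the main cartilage collagen, had 0.478 to 1.03 CPM, and Matn1 was at 0 in every library. Their sum was 181 to 222 CPM in the cKO label and 47.4 to 244 CPM in control.

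Both link proteins were detected in every library, and neither differed between the groups beyond the spread. Hapln1 (ENSMUSG00000021613, chromosome 13, 89540636 to 89611832, plus strand) lies next to Vcan, with 43479 bases between them. It had 17.3, 17.9, 17.8 and 15.5 CPM in the libraries labelled cKO 1, 2, 4 and 5, against 16.2, 14.3, 16.4 and 20.5 CPM in controls 1, 3, 4 and 6. All 4 libraries of the cKO label lay inside the control range. The log2 fold change was 0.03 (SE 0.12, 95% interval -0.23 to 0.28, edgeR adjusted p = 0.965), the narrowest interval of the 6, and it was -0.04 without control 3. Although the genes are neighbours, control 3 was the highest library in Vcan and the lowest in Hapln1. The TPM ratio of Vcan to Hapln1 was 7.62 ± 0.490 in the cKO label and 9.72 ± 3.77 in control (SD, n = 4 each), and reached 14.9 in control 3.

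Hapln3 (ENSMUSG00000030606, chromosome 7, 79117027 to 79131018, minus strand), a link protein of wider distribution, lies 1927 bases from Acan, end to end. It had 10.7, 11.2, 8.05 and 9.77 CPM in the libraries labelled cKO 1, 2, 4 and 5, against 9.48, 10.95, 12.9 and 11.4 CPM in controls 1, 3, 4 and 6. The lowest value was in the library labelled cKO 4 and the highest in control 4. The log2 fold change was -0.17 (SE 0.14, 95% interval -0.47 to 0.13, edgeR adjusted p = 0.756). It was -0.08 when the library labelled cKO 4 was left out. Hapln3 supplied 66.9 ± 3.63% of the summed link protein TPM in the cKO label and 70.0 ± 3.77% in control (SD, n = 4 each). Hapln1 supplied 33.0 ± 3.71% in the cKO label and 29.96 ± 3.72% in control. The 2 brain forms were nearly silent, with Hapln2 at 0 in every library and Hapln4 at 7 counts in all.

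Cd44 (ENSMUSG00000005087, chromosome 2, 102811141 to 102901665, minus strand) is the main surface receptor of hyaluronan and is carried by mesenchyme, some epithelia and white blood cells. It had 47.3, 36.9, 46.3 and 38.0 CPM in the libraries labelled cKO 1, 2, 4 and 5, against 36.9, 59.0, 44.2 and 37.6 CPM in controls 1, 3, 4 and 6. Control 3 was the highest, and the other 3 controls lay inside the range of the cKO label. The means were 42.1 ± 5.45 CPM in the cKO label and 44.4 ± 10.2 CPM in control (SD, n = 4 each), a log2 fold change of -0.08 (SE 0.15, 95% interval -0.41 to 0.26, edgeR adjusted p = 0.904). Without control 3 it was 0.09 (SE 0.11, edgeR adjusted p = 0.952), the opposite sign. Macrophage markers, which mark a cell type rich in Cd44, summed to 240.0 to 346 CPM in the cKO label and 185 to 297 CPM in control. All 10 of them had at least 1 CPM on average, with Csf1r highest, and control 3 had the lowest sum. The high Cd44 of control 3 stood beside the lowest macrophage sum, and the part of macrophages in the Cd44 values was not tested.

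**Figure D3:**
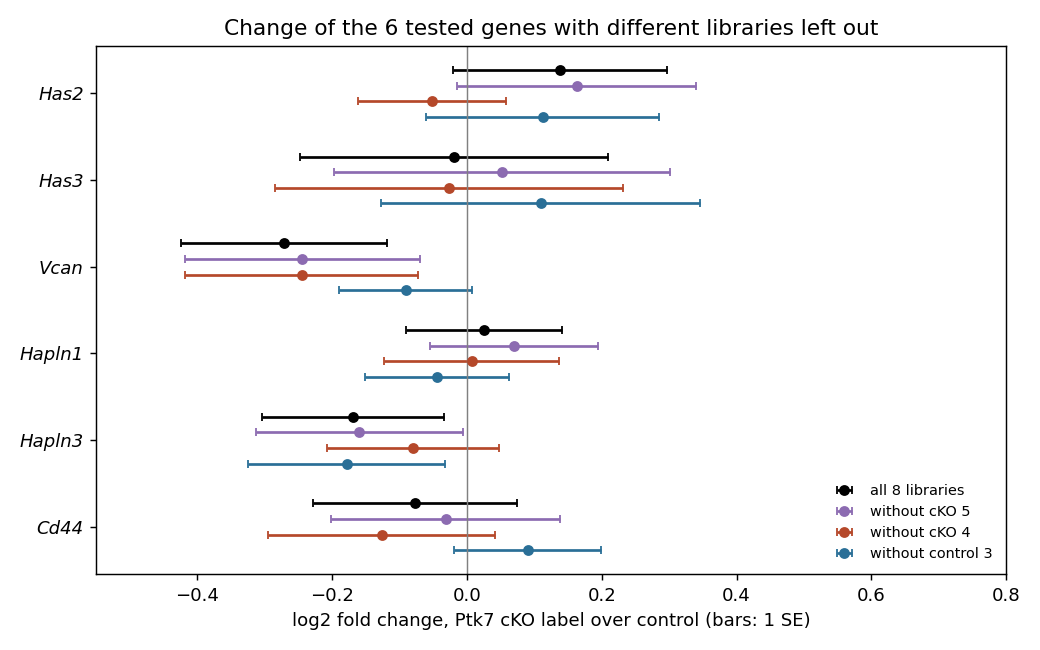
Log2 fold change (libraries labelled Ptk7 cKO over control, edgeR) of the 6 tested genes with all 8 libraries and without the library labelled cKO 5, the library labelled cKO 4 or control 3, with bars of 1 SE. Vcan moves to -0.09 without control 3, Has2 to -0.05 without the library labelled cKO 4, and Cd44 to 0.09 without control 3.

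Single libraries lay at an end of the range in several of these genes, although Dixon's outlier test, given below, marked none in the 6 tested genes. Control 3, the highest library in Vcan and Cd44, was the lowest in Hapln1, Has1 and Acan. It was also the lowest of all libraries in the summed markers of mesenchyme (15791 CPM, against 17233 to 23024 CPM in the other 7) and of cartilage (47.4 CPM, against 181 to 244 CPM in the other 7). The mesenchyme sum was mostly Col3a1, Col1a2 and Col1a1, which were lowest in control 3, as were Lum and Twist1. Pdgfra (884 CPM, against 617 to 768 CPM elsewhere) and Pdgfrb (169.7 CPM, against 135 to 165 CPM) were instead highest there. Dcn, Prrx1 and Tcf21 lay within the range of the other libraries. The cartilage sum was mostly Col9a2, a collagen IX chain, with 33.8 CPM in control 3 and 149.7 to 209 CPM elsewhere. Cnmd, Col9a1 and Col9a3 were also lowest in control 3. Col2a1, the main cartilage collagen, was instead highest there (1.03 CPM, against 0.478 to 0.988 CPM elsewhere). The part of these marker differences in the Vcan and Cd44 values was not tested. Over all 8 libraries the log2 CPM of Vcan and Cd44 had a Pearson r of 0.58 (Spearman rho 0.19), and r was 0.04 over the 6 libraries without controls 1 and 3, which lay farthest from the median of Vcan. Control 3 was the highest in both genes, while control 1 had high Vcan (466 CPM) and low Cd44 (36.9 CPM). Of these libraries only control 3 thus goes with a positive r.

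Has2 and Hapln3 ran opposite to each other. The library labelled cKO 4, with the most Has2 (73.4 CPM), had the least Hapln3 (8.05 CPM), and control 4, with the least Has2 (41.8 CPM), had the most Hapln3 (12.9 CPM). Over 8 libraries Pearson's r was -0.93 and Spearman's rho -0.79, and r was -0.73 over 6 libraries without the 2 farthest in Has2 (control 1 and the library labelled cKO 4). This is a description picked from 15 pairs among the 6 genes, over libraries that share their tissue and dissection.

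**Figure D4:**
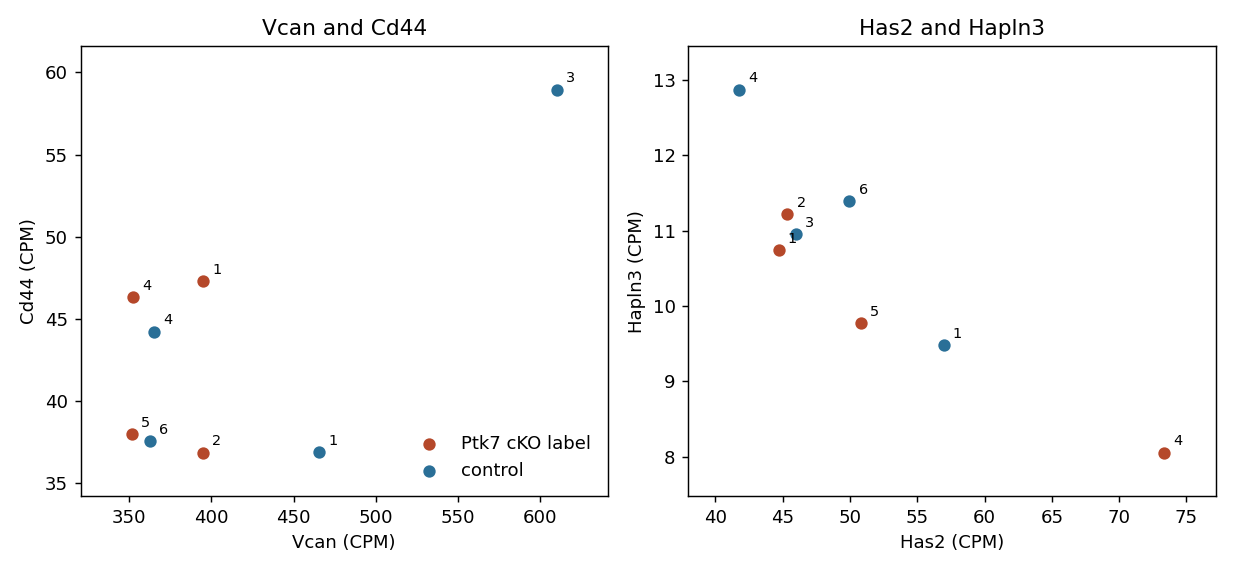
CPM of Cd44 against Vcan (left panel) and of Hapln3 against Has2 (right panel) in each library, numbered, for the libraries labelled Ptk7 cKO and the controls (axes do not start at 0). Control 3 stands alone at the top right for Vcan and Cd44 (610.1 and 59.0 CPM), while Hapln3 is lowest where Has2 is highest, in the library labelled cKO 4 (8.05 and 73.4 CPM).

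For each tested gene, the 3 other genes whose log2 CPM followed it most closely over the 8 libraries, among 13079 with at least 1 CPM on average, are named as a description. The closest to Has2 were Taf4, a transcription initiation subunit (r = 0.98), Galns (0.95), a lysosomal sulfatase that degrades keratan and chondroitin sulfate, and Cyb5d1 (0.94). Taf4 had 26.9 CPM in the library labelled cKO 4 and 20.6 to 23.99 CPM elsewhere. The closest to Vcan were Zxdb (0.98), Gemin6 (0.98) and Hmgn2 (0.97), a nucleosome-binding protein. Hmgn2 averaged 155 ± 11.4 CPM in the cKO label and 231 ± 100.3 CPM in control (SD, n = 4 each), with 358 CPM in control 3 and 265 CPM in control 1. Rybp, a Polycomb subunit, was closest to Cd44 (0.99), followed by Zbtb11 (0.97) and Pvt1 (0.97), and all 3 were highest in control 3. Hapln1 was followed most closely by Mrnip (0.98), Hmgb3 (0.95) and Ptafr (0.95), Hapln3 by Agpat2 (0.95), Rmc1 (0.91) and Homer2 (0.91), and Has3 by Poldip3 (0.95), Ttll1 (0.95) and Tcp11l1 (0.93). These values were picked as the highest of many over 8 libraries, and no test was made of them.

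In the wider pathway, listed in 9 groups of 95 genes (94 found, 82 tested), 0 were called by edgeR over all genes, 5 were higher and 5 lower at an unadjusted p under 0.05, and the median log2 fold change was 0.03. Over all genes tested, 3.5% were higher and 4.87% lower at that threshold. DESeq2 called 2 of the 82, Tgfbi and Esrp1, against 1.13% of the genes it tested. Without the library labelled cKO 5, 5 of the 82 were again higher and 5 lower, against 3.74% and 5% of all genes, with Nagk among them in place of Fbln2, and the median was 0.01. All of the 12 genes that supply the sugar precursors were tested and 0 passed the unadjusted threshold with all 8 libraries. Without the library labelled cKO 5 there was 1, Nagk, the kinase that salvages N-acetylglucosamine, named after its values were seen (log2 fold change 0.39, SE 0.17, edgeR adjusted p = 0.568), against 0.33 (SE 0.16, edgeR adjusted p = 0.627) with it. The most abundant of them by TPM were Gpi1, a glycolytic isomerase (268 ± 15.3 CPM in the cKO label and 262 ± 29.3 CPM in control, SD, n = 4 each), and Ugp2, which makes UDP-glucose (117 ± 4.37 CPM in the cKO label and 116 ± 7.66 CPM in control). Of 22 chondroitin sulfate synthesis genes, 2 were higher and 1 lower at an unadjusted p under 0.05, against 3.5% and 4.87% of all genes. The most abundant there were Chpf, a chain-polymerising factor, with a log2 fold change of 0.11 (SE 0.09, edgeR adjusted p = 0.753), and Chst14, a dermatan sulfotransferase, with 0.09 (SE 0.08, edgeR adjusted p = 0.767). Those past the unadjusted threshold, with and without the library labelled cKO 5, named after their values were seen, were the polymerase Chsy1 (0.24), the chain-initiating Csgalnact1 (0.24) and the sulfotransferase Chst15 (-0.32).

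Of 8 tested hyaluronan breakdown genes, 1 was lower at an unadjusted p under 0.05 and none higher, against 4.87% lower and 3.5% higher of all genes, and it was the same gene without the library labelled cKO 5. That gene, also named after its values were seen, was Cemip, a hyaluronan-binding protein needed for its depolymerisation, with 6.33, 10.1, 5.50 and 10.1 CPM in the libraries labelled cKO 1, 2, 4 and 5, against 11.7, 14.7, 12.9 and 10.0 CPM in controls 1, 3, 4 and 6. The ranges overlapped at control 6, and the log2 fold change was -0.62 (SE 0.21, edgeR adjusted p = 0.42). The lysosomal enzyme Hexa (log2 fold change 0.14, SE 0.08, edgeR adjusted p = 0.682) and the hyaluronidase Hyal2 (0.07, SE 0.07, edgeR adjusted p = 0.814) were the most abundant of the list. The testis hyaluronidases Spam1 and Hyal5, with Hyal4, were at 0 in every library.

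Of 8 lectican-cleaving proteases and inhibitors, 1 was lower at an unadjusted p under 0.05 and none higher, against 4.87% lower and 3.5% higher of all genes, and it too was the same gene without that library. It was Timp3, the matrix-bound inhibitor of these proteases, with 275, 271, 286 and 288 CPM in the libraries labelled cKO 1, 2, 4 and 5, against 343, 382, 340.4 and 293 CPM in controls 1, 3, 4 and 6. The groups did not overlap, by a margin of a few CPM between the highest library of the cKO label and control 6, as was so for 5.76% of all genes. The log2 fold change was -0.28 (SE 0.09, edgeR adjusted p = 0.374; DESeq2 adjusted p = 0.156). Adamts1, a versican-cleaving protease and the other abundant member, had 196 ± 25.1 CPM in the cKO label and 177 ± 30.5 CPM in control (SD, n = 4 each; edgeR adjusted p = 0.774).

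Among 7 tested matrix partners of versican, 3 were higher and none lower at an unadjusted p under 0.05, against 3.5% higher and 4.87% lower of all genes, with a median log2 fold change of 0.28. Without the library labelled cKO 5, 2 were higher (Tgfbi and Dpt) and the median was 0.19. Tgfbi, a secreted adhesion protein, had 239, 233, 209 and 209.6 CPM in the libraries labelled cKO 1, 2, 4 and 5, against 154, 165, 199 and 137 CPM in controls 1, 3, 4 and 6, without overlap (log2 fold change 0.45, SE 0.11, edgeR adjusted p = 0.238; DESeq2 adjusted p = 0.022). Fbln1, the most abundant partner, had a log2 fold change of -0.02 (SE 0.09, edgeR adjusted p = 0.958). The other 2 past the unadjusted threshold, named after their values were seen, were Dpt (0.47) and Fbln2 (0.29), and Fbln2 did not pass without the library labelled cKO 5 (0.19, SE 0.12, edgeR adjusted p = 0.669). Other hyaluronan receptors showed no gene past the unadjusted threshold out of 6 tested. They included Hmmr, a mitotic protein that also binds hyaluronan (54.8 ± 5.03 CPM in the cKO label and 57.3 ± 3.42 CPM in control, SD, n = 4 each), and Lyve1, of lymphatic vessels and fetal macrophages (22.5 ± 4.11 CPM in the cKO label and 19.9 ± 3.23 CPM in control). None of the 6 tested genes listed as hyaluronan-linked proteins passed that threshold either. The most abundant by TPM were Itih5 (log2 fold change 0.01, SE 0.12) and Habp4 (0.20, SE 0.14). Ncan, the one tested gene among the other lecticans and link proteins, had 0.445 ± 0.150 CPM in the cKO label and 0.443 ± 0.196 CPM in control (SD, n = 4 each).

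Of 12 partners, sheddases and splicing regulators of Cd44, 2 were lower and none higher at an unadjusted p under 0.05, against 4.87% lower and 3.5% higher of all genes, and the same 2 were lower without the library labelled cKO 5. Both, named after their values were seen, were the epithelial splicing factors that promote variant exons of Cd44. Esrp1 had 26.3, 31.8, 22.9 and 25.9 CPM in the libraries labelled cKO 1, 2, 4 and 5, against 36.6, 48.4, 39.6 and 33.2 CPM in controls 1, 3, 4 and 6 (log2 fold change -0.56, SE 0.13, edgeR adjusted p = 0.219; DESeq2 adjusted p = 0.0159). Esrp2 had a log2 fold change of -0.36 (SE 0.15, edgeR adjusted p = 0.531). Neither overlapped between the groups, as was so for 5.76% of all genes, although the highest Esrp2 of the cKO label and the lowest of control were both 6.07 CPM after rounding. Of the 12 duct epithelium markers listed (Esrp1 among them), 7 were lower at an unadjusted p under 0.05, against 4.87% of all genes, and 7 without the library labelled cKO 5. By log2 fold change, 10 of the 12 lay below 0 and 2 above. Their summed level overlapped between the groups, at 929 to 1276 CPM in the cKO label and 1065 to 1220 CPM in control. It was highest in the library labelled cKO 2. The part of these marker differences in the Esrp values was not tested. The surface protease Mmp14, which sheds Cd44, and the linker Ezr, which ties it to actin, were the most abundant, with log2 fold changes of 0.12 (SE 0.10) and 0.01 (SE 0.13). Exon counts of Cd44 were not analysed here.

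**Figure D5:**
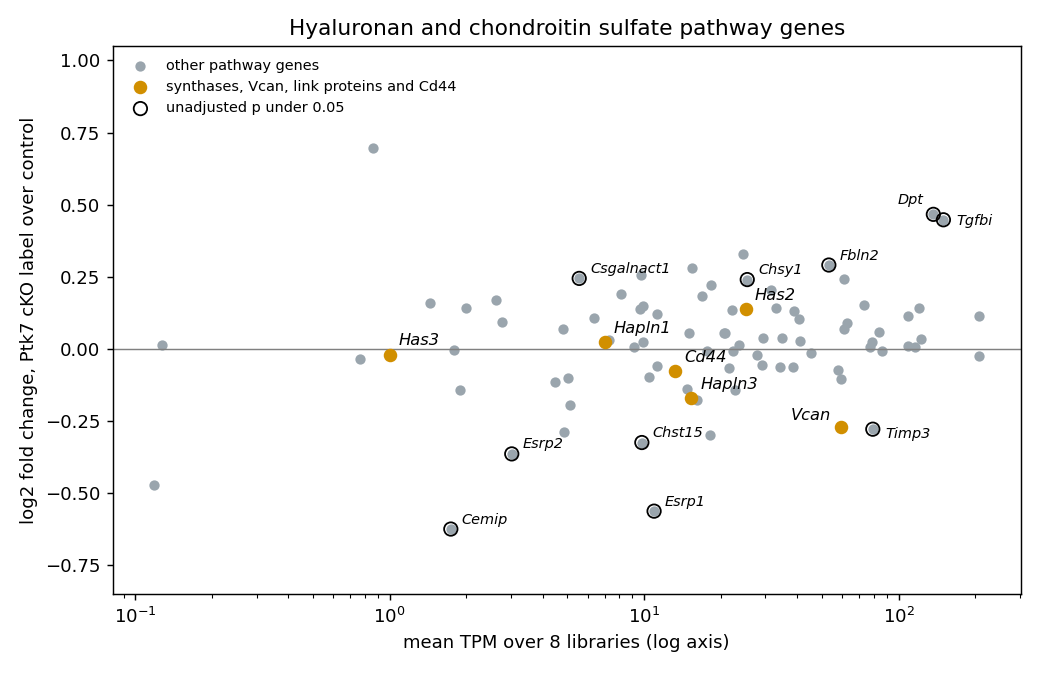
Log2 fold change (libraries labelled Ptk7 cKO over control, edgeR) against mean TPM (log axis) for the 82 tested pathway genes and the 6 tested genes of hyaluronan synthesis and binding, with rings around the 10 pathway genes at an unadjusted p under 0.05. The 6 lie between -0.27 (Vcan) and 0.14 (Has2), without a ring.

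Without the library labelled cKO 5, the 6 genes were again 0 of 6 at an adjusted p under 0.05, against 0.00599% of the genes tested in that fit, and 0 of 6 at an unadjusted p under 0.05, against 3.74% higher and 5% lower. The log2 fold change was 0.16 for Has2, 0.05 for Has3, 0.07 for Hapln1, -0.16 for Hapln3 and -0.03 for Cd44. Their median was 0.01, as over all genes. Has3 took the opposite sign there, within its SE of 0.25.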

How the data were processed

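The authors deposited raw counts per gene for 8 libraries, with 1 column each, and the summed exon length of 46517 genes. STAR, featureCounts and build GRCm38 are named in the submitters' processing notes. The sources used here give no version, strand setting or annotation release. Symbols were matched by Ensembl identifier. The test on these counts was that of edgeR 4.0.16 under R 4.3.3: TMM factors, filterByExpr (16469 genes kept), the quasi-likelihood F test on group, and Benjamini-Hochberg adjustment at 0.05 over all genes tested. The SE is the size of the log2 fold change divided by the square root of F. CPM is scaled by the TMM factors, and TPM was computed from counts and exon length. The code was tested on simulated counts. DESeq2 1.42.0 and limma 3.58.1 (voom) were alternatives.

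The genes, lists and tests were chosen with earlier results of these data known. Of each pathway list, the 2 detected genes with the highest TPM were named, along with the 3 genes of most similar pattern for each tested gene with a mean of at least 1 CPM (log2 CPM with a prior count of 2); others named were chosen after their values were seen. Of the 95 pathway symbols 1, an older name, was not found. Promoter sequences are from RefSeq. With a biological coefficient of variation of 15.2%, the spread between libraries outweighs counting error for all but low genes. Figures were drawn with matplotlib 3.10.9.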

Additional observations from a re-analysis of the deposited data

Results flagged for a closer look

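In the group labelled Ptk7 cKO, the Ptk7 level of library 5, at 194 CPM, stood far from the other 3 libraries, which lay between 7.33 and 12.5 CPM. Dixon's test at 95% was applied to the CPM of 24 genes (the 6 tested genes, Ptk7 and the pathway genes named for their level) in 2 groups each, and marked this 1 library. Chance marks about 1 in 20 groups.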

How the results depend on the processing

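The 6 tested genes were not called under any alternative run, and the smallest adjusted p among their alternatives was 0.502. Of 102 values of these genes under alternatives, 89 kept their sign and 13 did not. Signs turned under voom with sample quality weights for Cd44 (0.034) and Has3 (0.12), and under the replicate block for Cd44 (0.21). They also turned without control 3 and the library labelled cKO 5 together, for Cd44 (0.14) and Has3 (0.19), and in DESeq2 without the library labelled cKO 5 for Has3 (0.054). Leaving out each library in turn gave log2 fold changes of -0.16 to 0.090 for Cd44, -0.044 to 0.13 for Hapln1, -0.24 to -0.08 for Hapln3, -0.052 to 0.22 for Has2, -0.17 to 0.11 for Has3 and -0.36 to -0.09 for Vcan. The ends nearest 0 or past it came without control 3 for Vcan, Cd44, Hapln1 and Has3, and without the library labelled cKO 4 for Has2 and Hapln3. The sign turned in 4 of these 8 fits for Has3, and in 1 each for Cd44, Hapln1 and Has2.

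Over all genes, edgeR called 0 (1379 at an unadjusted p under 0.05). Other settings called 1 with no filter on low counts, 184 in DESeq2 (57 higher, 127 lower), 177 in DESeq2 without the library labelled cKO 5, 3 without that library and control 3, and 7 under the replicate block. Leaving out each library gave 0 to 2, with 2 without control 1, 1 (Ptk7) without the library labelled cKO 5 and 0 otherwise. The alternatives without 2 libraries, and DESeq2 without the library labelled cKO 5, were chosen after seeing the data. The block uses the numbers 1 and 4, present in both groups, and so 4 libraries. Deviations of same-numbered libraries correlated at -0.09 and 0.02 over 16469 genes, so the numbers are not taken to pair the samples. The cause of these differences was not tested. Depth limits Has1, Acan and Bcan, with 38, 57 and 7 counts in all.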
